A study of Mus musculus with 24 samples.

Results

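Nr4a1, Nr4a2, Nr4a3, Egr1, Egr2 and Egr3 are 6 early response genes, taken by name from the 20028 genes with a probe on the arrays, and all 6 had a probe on each of the 24 arrays. Each array carried a condition of in vitro differentiated Th1 or Th2 cells from female C57BL/6 mice in the Cy3 channel. Naive CD4+ T cells (CD62L+ CD25- CD44lo) from lymph nodes and spleens were in the Cy5 channel as the common reference. Of the arrays, 14 were of Th1 and 10 of Th2 cells. Cells received the vehicle DMSO, JQ1 at 50 or 500 nM, or flavopiridol at 1 or 10 µM, and each treatment had an array of unstimulated and an array of reactivated cells. Cells were treated for 6 hr. A further 24 hr time point exists for Th1 cells given vehicle or the higher JQ1 dose. The Th2 DMSO arrays carry both 6 hr and 24 hr in their labels, so their time is unclear in every comparison that uses them. No genotype is given beyond the strain, the labels do not say how cells were reactivated, and each condition had 1 array from 1 biological replicate. Tests therefore rest on effects that recurred over cell contexts, and precision is limited by how few arrays there were.

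Nr4a1, Nr4a2 and Nr4a3 encode orphan nuclear receptors that bind DNA without a known natural ligand. Egr1, Egr2 and Egr3 encode zinc finger transcription factors that bind GC-rich sites. In T cells both families are transcribed quickly after the antigen receptor is engaged, through MAP kinase and serum response factor at the Egr genes and through calcium, MEF2 and CREB family factors at the Nr4a genes. Nr4a1 is widely used as a reporter of receptor signalling, and Egr2, Egr3 and the Nr4a receptors are known for restraining T cell responses. Their messages are short-lived, so their levels follow current transcription. JQ1 displaces BET bromodomain proteins from acetylated chromatin, and flavopiridol inhibits P-TEFb, the kinase that releases paused RNA polymerase II. The arrays were made to ask how T helper cell transcription depends on both.

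Promoter sequence is shown for the 4 members that a RefSeq table of build GRCm38.p6 lists, as the 250 bases before the annotated start, because these genes moved together under reactivation. Capitals mark letters that match a searched motif on either strand. The Nr4a windows are chr15:101266596-101266845 (+ strand) for Nr4a1, chr2:57124004-57124253 (- strand) for Nr4a2 and chr4:48045055-48045304 (+ strand) for Nr4a3. The Egr2 window is chr10:67537680-67537929 (+ strand), 1 of 5 listed for Egr2.
Nr4a1: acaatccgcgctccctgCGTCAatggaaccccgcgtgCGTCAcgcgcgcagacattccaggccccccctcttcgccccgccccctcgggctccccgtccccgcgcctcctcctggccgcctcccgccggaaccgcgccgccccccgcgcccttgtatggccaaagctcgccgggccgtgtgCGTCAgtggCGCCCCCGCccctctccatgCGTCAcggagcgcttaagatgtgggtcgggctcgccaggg
Nr4a2: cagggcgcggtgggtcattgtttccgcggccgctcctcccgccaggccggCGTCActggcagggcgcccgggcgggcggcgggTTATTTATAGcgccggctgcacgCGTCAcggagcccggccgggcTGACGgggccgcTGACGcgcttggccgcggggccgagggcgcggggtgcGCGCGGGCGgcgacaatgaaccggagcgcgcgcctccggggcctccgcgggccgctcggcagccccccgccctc
Nr4a3: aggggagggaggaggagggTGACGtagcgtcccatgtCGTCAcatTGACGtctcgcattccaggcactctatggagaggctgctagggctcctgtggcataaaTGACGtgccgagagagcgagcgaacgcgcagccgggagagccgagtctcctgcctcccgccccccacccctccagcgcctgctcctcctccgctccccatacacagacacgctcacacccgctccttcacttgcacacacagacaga
Egr2: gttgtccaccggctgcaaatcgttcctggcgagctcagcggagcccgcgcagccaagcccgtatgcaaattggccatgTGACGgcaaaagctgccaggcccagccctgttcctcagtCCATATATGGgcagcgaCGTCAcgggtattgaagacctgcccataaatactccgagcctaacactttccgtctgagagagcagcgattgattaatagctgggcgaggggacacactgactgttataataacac
The letters TGACG, the core of a CREB family site, occurred at 4 places in each of the 3 Nr4a windows. Of 32851 mouse windows of the same length, 17.8% held TGACG at 1 or more places and 0.137% at 4 or more, a threshold chosen after the matches were seen. The full palindrome TGACGTCA, which contains TGACG and was found in 1.55% of windows, was in none of those listed for the members, and nor was the Nr4a site AAAGGTCA, found in 1.34%. The letters GCGNGGGCG, an Egr site, were in the Nr4a1 and Nr4a2 windows and in 4.7% of all windows. A MEF2 site was in the Nr4a2 window and in 2.92% of all. The printed Egr2 window held a CArG box, the serum response factor motif, from base -133 to base -124 counted from the start, and 1.47% of windows hold a CArG box. In other listed Egr2 windows a CArG box began at base -72 or -73, and the window chr10:67535249-67535498 held no searched motif. The Egr2 match and its place thus depend on the start chosen. These matches describe the letters only.

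Nr4a1, Egr1, Egr2, Egr3 and Nr4a3 had a probe each, and Nr4a2 had a pair, of which the brighter is given unless stated. Values are log2 ratios of sample over naive cells after background correction and loess normalization, and a spot counts as measured where the scanner software called it well above background. Nr4a1 was above background in the sample channel on 24 of 24 arrays, the brighter Nr4a2 probe on 24, Egr1 on 23 and Egr2 on 19. Nr4a3 was above background on 14 arrays and Egr3 on 12, all of them reactivated in the case of Egr3. In the naive reference Nr4a1, the brighter Nr4a2 probe, Egr1 and Egr2 were above background on every array. Nr4a3 and Egr3 were above it on none, so their ratios stand against background and understate differences. The reference signal of Egr1 had an SD over arrays of 0.12 and that of Egr2 0.09 (log2), against 0.33 for Nr4a1 and 0.61 for Nr4a2.

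Over the series, 49.5% to 52.6% of probes were well above background in the sample channel with DMSO, 44.6% to 51.7% with JQ1 and 36.3% to 42.2% with flavopiridol. Spike-in ratios after loess were -0.82 to -0.29 (log2) with DMSO, -0.71 to 0.9 with JQ1 and -0.31 to 0.62 with flavopiridol. Loess holds the centre of each array near 0, so every value is relative to the other genes of its array. Cd3e, Cd3g, Cd3d, Cd4, Thy1 and Lck, the T cell genes, were above background on 24 of 24 arrays. Of 5 myeloid genes Itgam and Csf1r were above it on 24, Adgre1 on 6, Cd14 on 3 and Lyz2 on 0, and of the NK cell genes Ncr1 on 1 and Klrb1c on 0. In unstimulated cells without flavopiridol the mean log2 ratio of 5 Th1 genes was 2.56 to 4.03 in 6 hr Th1 cells and -1.12 to -0.49 in Th2 cells, and that of 5 Th2 genes was -0.13 to 0.45 and 0.77 to 2.02. In bulk RNA, fewer expressing cells and less RNA per cell cannot be told apart.

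The unstimulated Th1 arrays at 6 hr with DMSO or JQ1 stood apart from the other unstimulated arrays. Nr4a1 was at 2.26 (log2 ratio) with DMSO, 2.28 with 50 nM JQ1 and 2.01 with 500 nM JQ1 on these 3 arrays. On the 5 other unstimulated arrays without flavopiridol it was at -1.97 to -0.22. Egr1 was at 0.44, 1.22 and 1.54 on the 3 arrays and at -2.53 to -1.54 on the other 5. Egr2 overlapped, at 0.32, 0.01 and -0.27 on the 3 arrays and at -2.21 to -0.15 on the other 5, and Egr3 was above background on none of them. All 3 arrays lie on slide 1, as does the unstimulated Th2 DMSO array, on which Nr4a1 was at -1.97 and Egr1 at -2.53. Where a member was called for a drug against DMSO or for reactivation with these arrays, its estimate without them is given too.

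**Figure D1:**
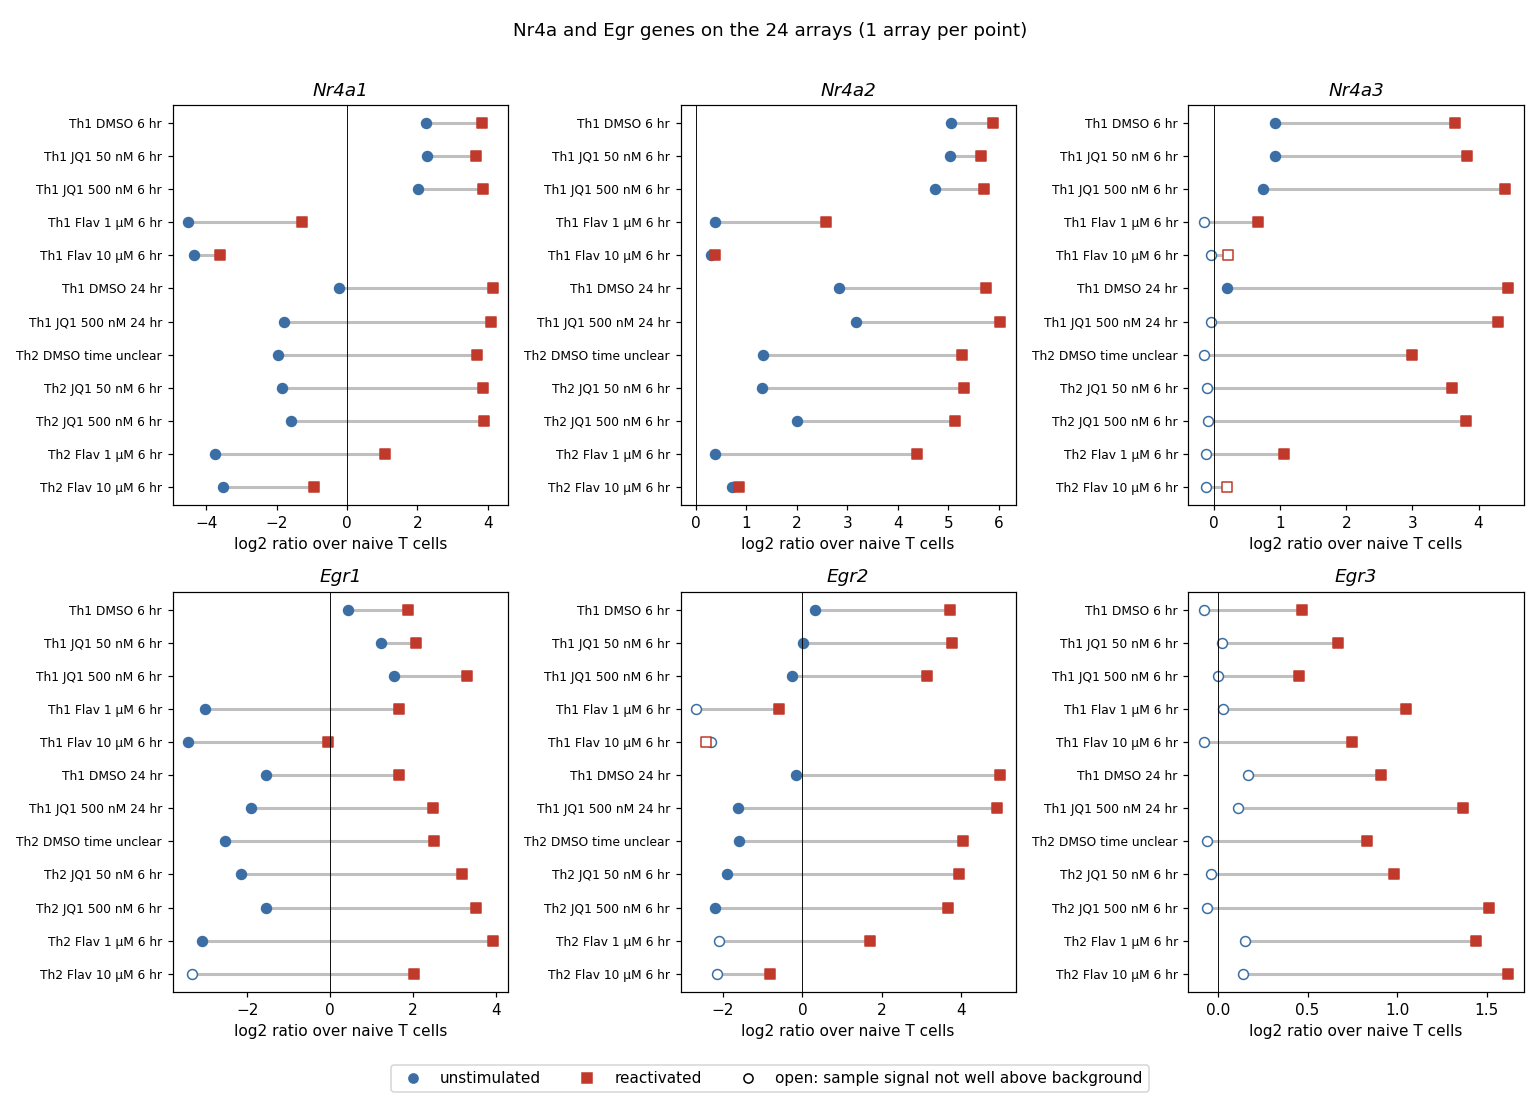
Log2 ratio over naive cells of the 6 members on each of the 24 arrays, arranged by cell type, treatment and time, with unstimulated and reactivated cells marked apart. Nr4a1 in unstimulated cells stood at 2.01 to 2.28 on the 6 hr Th1 arrays with DMSO or JQ1 and below 0 on every other unstimulated array.

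Reactivation without drug asks how far the 6 genes rise on stimulation. All 6 were called higher in reactivated than in unstimulated DMSO cells over 3 pairs of arrays, where 21.9% of 12530 genes tested were called higher and 29.0% lower. Egr3 passed the filter on dim probes only through its reactivated arrays, so its call there carries no weight in that count. The pairs were Th1 cells at 6 hr, Th1 cells at 24 hr and Th2 cells, in that order below.

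Nr4a1 was at 2.26, -0.22 and -1.97 (log2 ratio) in unstimulated and at 3.83, 4.14 and 3.69 in reactivated cells. The reactivated arrays were close to each other, so the pairs differed mainly in the unstimulated cells. The estimated rise was 3.86 ± 0.69 (log2 change ± SE, limma, adjusted p = 0.00458). Nr4a2 was at 5.05, 2.84 and 1.32 in unstimulated and at 5.89, 5.75 and 5.26 in reactivated cells, with the same order of the unstimulated arrays. It rose by 2.56 ± 0.53 (limma, adjusted p = 0.00783), or 3.78 in the sample channel alone, and with the software's own log ratio the rise of 1.92 was not called (limma, adjusted p = 0.0607). Its dimmer probe differed by 1.62 to 5.35 between the members of a pair, against 0.84 to 3.94 for the brighter. Nr4a3 was at 0.92, 0.19 and -0.16 in unstimulated and at 3.65, 4.45 and 3 in reactivated cells. It was not above background on the unstimulated Th2 array, its groups did not overlap, and it rose by 3.39 ± 0.28 (limma, adjusted p = 0.000368).

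Egr1 was at 0.44, -1.54 and -2.53 (log2 ratio) in unstimulated and at 1.89, 1.67 and 2.51 in reactivated cells. Every reactivated array was above every unstimulated one, and the rise was 3.23 ± 0.6 (log2 change ± SE, limma, adjusted p = 0.00521). Egr2, which limits T cell effector functions, was at 0.32, -0.15 and -1.59 in unstimulated and at 3.7, 4.98 and 4.05 in reactivated cells. Its change was 4.72 ± 0.4 (limma, adjusted p = 0.000386). Egr3, a close relative of Egr2, was not above background on any unstimulated array, at -0.08, 0.17 and -0.06, and was at 0.47, 0.91 and 0.83 in reactivated cells. Its change was 0.72 ± 0.13 (limma, adjusted p = 0.00476), and the reactivated mean was at least 1.57-fold higher than the lowest signal that counted as measured. Without the 6 hr Th1 pair the rises were larger, 5.01 for Nr4a1, 3.42 for Nr4a2, 3.72 for Nr4a3, 4.12 for Egr1 and 5.39 for Egr2, all called, and Egr3 could not be tested. Without either array of the Th2 pair they were smaller, 2.96 for Nr4a1, 1.88 for Nr4a2 and 2.33 for Egr1, and called.

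**Figure D2:**
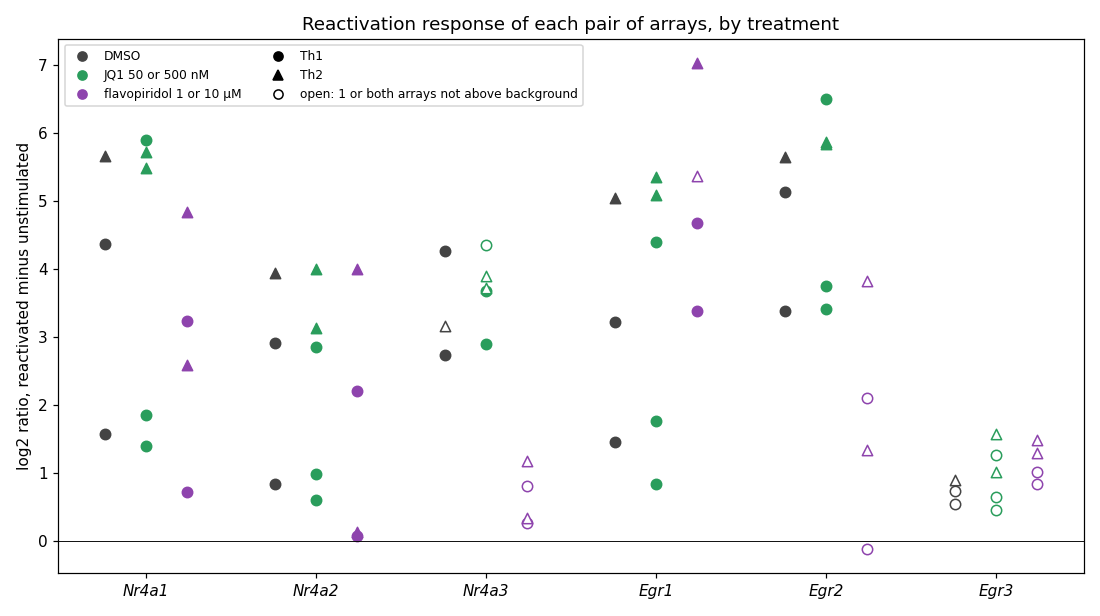
Log2 difference of the reactivated from the unstimulated array in each of 12 pairs, a point for each pair, for the 6 members, by treatment class. Nr4a1, Nr4a2, Egr1 and Egr3 were higher in reactivated cells in 12 of 12 pairs. Nr4a3 in both 10 µM flavopiridol pairs and Egr2 in the Th1 one were above background in neither state.

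Over all 12 pairs of unstimulated and reactivated cells, drugs included, Nr4a1, Nr4a2, Egr1 and Egr3 were higher in reactivated cells in 12 pairs. The dimmer Nr4a2 probe was above background in neither state in both 10 µM flavopiridol pairs (0.11 in Th1 and -0.12 in Th2 cells) and higher in the others. Nr4a3 was above background in neither state in both 10 µM flavopiridol pairs and higher in reactivated cells in the other 10. Egr2 was above it in neither state in the 10 µM Th1 pair and higher in the other 11. The log2 difference was 0.72 to 5.89 for Nr4a1, 0.07 to 4 for Nr4a2 and 0.26 to 4.35 for Nr4a3. It was 0.84 to 7.02 for Egr1 and 0.45 to 1.57 for Egr3, and Egr2 ranged from -0.12 to 6.5. The smallest differences of Nr4a1, Nr4a2, Nr4a3 and Egr2 were in flavopiridol pairs, whereas the largest of Egr1 was in a flavopiridol pair. The smallest values of Nr4a3 and Egr2 lay between arrays not above background, so their size has no meaning.

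Among 22 other immediate early genes, 13 rose on reactivation without drug and 0 fell, against 21.9% and 29.0% of all genes, with a median change of 1.51 (log2) against -0.05 over all genes tested. Plk2, a polo-like kinase, rose by 4.37 and the transcription factor Myc by 3.3. Of 19 genes on the signalling route to the Nr4a and Egr promoters, 0 rose and 10 fell, among them Nfatc2, a calcium-dependent factor (-1.68), and Mrtfa, a cofactor of serum response factor (-1.68). Of 17 genes linked to Egr2 and Egr3 in T cells, 7 rose and 1 fell. Crtam, a surface receptor of activated T cells, rose by 5.29, Egr4 by 3.42, and Rnf128, a ubiquitin ligase of anergic cells, changed by -0.63. Of 11 tested genes linked to the Nr4a receptors, 5 rose and 2 fell. The inhibitory receptor genes Pdcd1 and Havcr2 rose by 3.97 and 3.3, and Tox, a factor of exhausted T cells, and Rxrb, a gene of the retinoid X receptors that pair with Nr4a1 and Nr4a2, changed by -0.48 and -0.73.

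Flavopiridol at 10 µM was compared with DMSO over 4 contexts, Th1 and Th2 cells in both states. Nr4a1, Nr4a2, Nr4a3, Egr1 and Egr2 were called lower and Egr3 was not called, so that 5 of 6 were lower and 0 higher. Nr4a3 passed the filter on dim probes through no array with 10 µM, so its call carries no weight in that count. Of 12432 genes tested, 33.5% were called lower and 15.4% higher. With spike-in centring 6 of 6 were called lower, but so were 11361 of the 12432 genes. Nr4a1 was then at -6.68, Nr4a2 at -4.39, Egr1 at -3.57 and Egr2 at -5.4. Flavopiridol arrays had fewer probes above background than DMSO arrays, and no flavopiridol array shared a slide with its control. Whether these take part in the differences was not tested.

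Nr4a1 with 10 µM flavopiridol was at -4.34 (log2 ratio) in unstimulated Th1, -3.62 in reactivated Th1, -3.52 in unstimulated Th2 and -0.93 in reactivated Th2 cells, against 2.26, 3.83, -1.97 and 3.69 with DMSO. It was lower in 4 of 4 contexts, with a change of -5.06 ± 0.9 (log2, SE, limma, adjusted p = 0.00194) or 33.3-fold, and all 8 signals were above background. Nr4a2 was at 0.3, 0.37, 0.72 and 0.85 in the same order, against 5.05, 5.89, 1.32 and 5.26 with DMSO. These 4 arrays hardly differed between states, and the change was -3.82 ± 0.82 (limma, adjusted p = 0.00501). With the dimmer Nr4a2 probe the 10 µM arrays were all below background and the DMSO mean at least 10.6-fold higher. Nr4a3 was above background on 0 of the 4 arrays with 10 µM, and on 3 of the 4 with DMSO. Its change was -1.79 ± 0.51 (limma, adjusted p = 0.0188), with the DMSO mean at least 3.02-fold higher over all contexts and at least 6.95-fold higher in reactivated cells. The Nr4a3 call was lost without the reactivated Th1 10 µM array (-1.5), the reactivated Th2 10 µM array (-1.53) or the reactivated Th2 DMSO array (-1.55), and with slide as a random block (adjusted p = 0.0826). Over the 3 contexts other than unstimulated Th1, Nr4a1 changed by -4.54, Nr4a2 by -3.51 and Nr4a3 by -2.07, all called (limma, adjusted p = 0.0112, 0.0235 and 0.0415).

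Egr2 with 10 µM flavopiridol was at -2.3 (log2 ratio) in unstimulated Th1, -2.42 in reactivated Th1, -2.15 in unstimulated Th2 and -0.82 in reactivated Th2 cells, against 0.32, 3.7, -1.59 and 4.05 with DMSO. It was above background on 1 of the 4 treated arrays, that of reactivated Th2 cells, and changed by -3.54 ± 0.78 (log2, SE, limma, adjusted p = 0.00561), or by -3.85 over the 3 contexts other than unstimulated Th1 (limma, adjusted p = 0.02). Egr1 was at -3.43, -0.05, -3.34 and 2.02 in the same order, against 0.44, 1.89, -2.53 and 2.51 with DMSO. It was lower in 4 of 4 contexts, with differences from -3.87 in unstimulated Th1 cells to -0.49 in reactivated Th2 cells. The change of -1.78 ± 0.65 (limma, adjusted p = 0.0489) was called narrowly. It was not called without 9 of the 12 arrays taken 1 at a time, with values of -2.08 to -0.97. It was smallest without the unstimulated Th1 DMSO array, at -0.97, and over the 3 contexts other than unstimulated Th1 it was -1.08 (limma, adjusted p = 0.0875). With slide as a random block its adjusted p was 0.139. Egr3 was at -0.08, 0.75, 0.14 and 1.62, against -0.08, 0.47, -0.06 and 0.83 with DMSO, and its change of 0.32 ± 0.15 (limma, adjusted p = 0.108) turned to -0.35 when arrays were centred on their spike-ins, where Egr3 was called lower (limma, adjusted p = 0.0411).

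**Figure D3:**
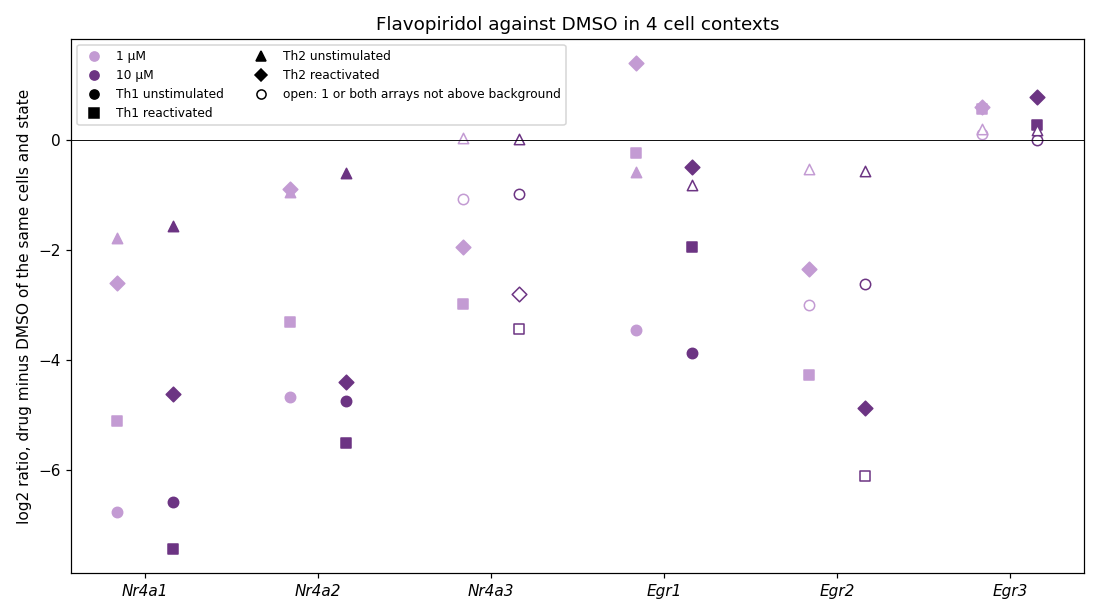
Log2 difference of flavopiridol from DMSO for the 6 members in each of 4 contexts, Th1 and Th2 cells, unstimulated and reactivated, at 1 and 10 µM. At 10 µM Nr4a1, Nr4a2, Egr1 and Egr2 were below 0 in all 4 contexts, and Egr3 was between 0 and 0.79.

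At 1 µM flavopiridol 4 of 6 members were called lower and 0 higher, against 35.4% lower and 16.2% higher of all genes tested. Nr4a1 changed by -4.07 (log2), Nr4a2 by -2.45, Nr4a3 by -1.49 and Egr2 by -2.53 (limma, adjusted p = 0.00521, 0.0343, 0.0381 and 0.0243). Nr4a1 was called in every alternative that was run, at -3.17 over the 3 contexts other than unstimulated Th1. The other calls were not: over the same 3 contexts, Nr4a2 changed by -1.71, Nr4a3 by -1.63 and Egr2 by -2.38, and none of them was called. With 1 array left out at a time, Nr4a2 lost its call without any of 6 arrays (-2.45 to -1.86), Nr4a3 without any of 5 (-1.51 to -0.96) and Egr2 without any of 4 (-2.38 to -1.81). The smallest values were without the reactivated Th1 DMSO array for Nr4a3 and Egr2 and without the unstimulated Th1 array at 1 µM for Nr4a2. With slide as a random block Nr4a1 was the 1 member still called, and Nr4a2, Nr4a3 and Egr2 were not (limma, adjusted p = 0.106, 0.132 and 0.0927). Egr1 was at -3.01 (log2 ratio) in unstimulated Th1, 1.66 in reactivated Th1, -3.1 in unstimulated Th2 and 3.92 in reactivated Th2 cells. In reactivated Th2 cells it was thus 1.41 above DMSO, and its estimate of -0.71 ± 0.65 (limma, adjusted p = 0.386) was 0.1 without the unstimulated Th1 DMSO array. The estimate for Egr3 was 0.38 ± 0.15 (limma, adjusted p = 0.0599), and -0.25 with spike-in centring, where Egr1 was called lower at -2.2 (limma, adjusted p = 0.00695). The estimate for Egr3 was 0.48 and called (limma, adjusted p = 0.0353) without the unstimulated Th1 DMSO array. Between 10 and 1 µM 0 members were called, against 1.50% of genes higher and 0.378% lower. None of the 6 had an unadjusted p under 0.05 there, and at these SEs of 0.15 to 0.9 moderate differences were not detectable.

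The response to reactivation was then taken within flavopiridol, over 4 pairs that each lay on a single slide. Egr1 and Egr3 were called higher, whereas Nr4a1, Nr4a2 and Egr2 were not called. Of 10920 genes tested, 0.110% were called higher, 12 genes in all, and 0.0183% lower, 2 genes. Nr4a3 was above background on 2 of 8 arrays and could not be tested. Egr2 and Egr3 passed the filter only through their reactivated arrays, so the Egr3 call carries no weight against those shares.

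Egr1 in unstimulated cells was at -3.01 with 1 µM and -3.43 with 10 µM in Th1 (log2 ratio), and at -3.1 and -3.34 in Th2 cells. In reactivated cells it was at 1.66, -0.05, 3.92 and 2.02 in the same order. The lowest reactivated array was above the highest unstimulated one, and the change was 5.11 ± 0.51 (log2, SE, limma, adjusted p = 0.0327). Egr3 was not above background on any of the 4 unstimulated arrays and was at 1.05, 0.75, 1.44 and 1.62 in reactivated cells. Its change was 1.15 ± 0.11 (limma, adjusted p = 0.0327), with the reactivated mean at least 2.12-fold higher. Both calls were lost without the 1 µM Th1 pair (5.25 for Egr1 and 1.2 for Egr3) or the 10 µM Th2 pair (5.02 and 1.04), whichever array of the pair was left out, and that of Egr3 also without the unstimulated 1 µM Th2 array (1.11).

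Nr4a1 in reactivated cells was at -1.29 with 1 µM and -3.62 with 10 µM in Th1 and at 1.09 and -0.93 in Th2 cells (log2 ratio), against -4.52, -4.34, -3.75 and -3.52 in unstimulated cells. Each pair differed upward, by 0.72 to 4.84, and the estimate of 2.85 ± 0.57 (limma, adjusted p = 0.113) was not called. Without either array of the 10 µM Th1 pair it was 3.55 and was called (limma, adjusted p = 0.0239 and 0.024). Nr4a2 in reactivated cells was at 2.58, 0.37, 4.38 and 0.85 in the same order, so that both 1 µM arrays were above both 10 µM arrays. Its estimate was 1.6 ± 0.63 (limma, adjusted p = 0.202). Egr2 was at -0.58, -2.42, 1.71 and -0.82, and at 10 µM in Th1 cells it was not above background in either state. It was not above background on any of the 4 unstimulated arrays, so its estimate of 1.78 ± 0.55 (limma, adjusted p = 0.149) stands against background, and the reactivated mean was at least 3.57-fold higher. Nr4a3 was at 0.66 and 0.21 in Th1 and at 1.06 and 0.2 in Th2 cells, above background at 1 µM only.

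The other 10 genes called higher in this comparison included the relative Egr4 (7.67, log2), the AP-1 subunits Fos (5.05) and Jun (4.06), and Phlda1 (3.52). Egr4 was called in DMSO cells too, at 3.42. Under flavopiridol its reactivated mean was at least 182-fold higher than the lowest signal that counted as measured. Its ratio in reactivated cells with flavopiridol was 5.55 to 9.31, above the 3.36 to 5.29 of reactivated DMSO cells, and it was not above background on any of the 4 unstimulated arrays. The remaining 6 were Ier5l (3.47), the metallothionein gene Mt2 (3.09), the interleukin 12 receptor gene Il12rb2 (1.68), Efna4 (0.99), Etv2 (0.81) and Selenov (0.74). The 2 called lower were the histone genes H2bc1 (-0.99) and H1f5 (-1.01). The number of genes called higher was 1160 with spike-in centring and 438 with loess values shifted by their spike-ins. With the software's own log ratio neither Egr1 (6.74) nor Egr3 (3.83) was called.

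A direct test of the flavopiridol effect in reactivated minus unstimulated cells called 2 of 6 members lower, Nr4a3 and Egr2, where 6.93% of genes were called lower and 8.90% higher. Egr2 with 10 µM differed from DMSO by -6.12 in reactivated Th1 and by -4.87 in reactivated Th2 cells, and by -2.62 and -0.56 in unstimulated cells, a contrast of -3.91 ± 0.89 (log2, SE, limma, adjusted p = 0.0275). The contrast for Nr4a3 was -2.65 ± 0.47 (limma, adjusted p = 0.0123). Egr2 on 3 of 4 arrays with 10 µM and Nr4a3 on all 4 were not above background, so a fall there could be measured only as far as background. Nr4a3 with DMSO was itself at or near background in unstimulated cells, at 0.92 and -0.16, so little fall could show there. Without the unstimulated Th1 DMSO array the contrasts were -5.05 for Egr2 and -3.18 for Nr4a3, both called. Both calls were lost when any 1 of the 4 arrays with 10 µM was left out (-4.32 to -3.51 for Egr2 and -2.87 to -2.43 for Nr4a3), that of Egr2 also without the unstimulated Th2 DMSO array (-2.78). Against cell type the same drug effect was tested with 0 of 6 members called. There 0% of genes were called higher and 0.0161% lower, and Nr4a1 was the member with an unadjusted p under 0.05.

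In the 10 µM comparison the list of 22 other immediate early genes had 13 genes lower and 0 higher, against 33.5% and 15.4% of all genes, with a median of -1.82 (log2) against -0.22 over all genes. Klf6 and Csrnp1, both early transcription factors, changed by -3.58 and -3.78. Of the 19 signalling genes 2 rose, Mapk3 by 2 and Elk4 by 0.78, and 9 fell, with Nfatc1 at -1.94 and Elk1 at -2.38. Of the 17 Egr-linked genes 9 fell and 0 rose. The death ligand gene Fasl changed by -2.7 and the cytokine signalling inhibitor Socs1 by -2.83. Of the 12 Nr4a-linked genes 6 fell, among them Pdcd1 at -3.67 and Irf4, an activation-induced factor, at -3.79. The 3 that rose included Tox at 1.07 and Rxrg at 0.64. With spike-in centring the median of all genes was -1.66, and 23 genes were called higher and 11361 lower in place of 1910 and 4166.

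JQ1 at 500 nM was compared with DMSO over the same 4 contexts. Egr1 rose and Egr2 fell, each in 4 of 4 contexts, and the other 4 members were not called. Thus 1 of 6 was called higher, where 17.7% of 12911 genes were, and 1 of 6 lower, where 29.9% were. Over all genes 2282 were called higher and 3862 lower, and 115 and 5522 with spike-in centring. Both Th1 arrays with 500 nM JQ1 shared a slide with their controls and both Th2 arrays did not.

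Egr1 with 500 nM JQ1 was at 1.54 (log2 ratio) in unstimulated Th1, 3.3 in reactivated Th1, -1.56 in unstimulated Th2 and 3.53 in reactivated Th2 cells, against 0.44, 1.89, -2.53 and 2.51 with DMSO. The differences of 1.1, 1.41, 0.97 and 1.02 were alike in size, and the estimate was 1.13 ± 0.14 (log2, SE, limma, adjusted p = 8.97e-05). It was 1.14 (limma, adjusted p = 0.00104) over the 3 contexts other than unstimulated Th1, 0.49 (limma, adjusted p = 0.124) with spike-in centring and 0.74 (limma, adjusted p = 0.0579) in Th1 cells at 6 and 24 hr within slides. After 24 hr Egr1 was at -1.91 in unstimulated and 2.48 in reactivated Th1 cells with JQ1, against -1.54 and 1.67 with DMSO. At that time the difference was -0.37 in unstimulated and 0.81 in reactivated cells. Egr2 with 500 nM JQ1 was at -0.27, 3.14, -2.21 and 3.65 in the order used above, against 0.32, 3.7, -1.59 and 4.05 with DMSO. Its differences of -0.59, -0.56, -0.62 and -0.4 gave an estimate of -0.54 ± 0.08 (limma, adjusted p = 0.000439), and of -0.53 without the unstimulated Th1 context (limma, adjusted p = 0.00447) and -1.16 with spike-in centring (limma, adjusted p = 0.00021). Within slides, in Th1 cells at 6 and 24 hr, it was -0.67 (limma, adjusted p = 0.0341), and after 24 hr its difference was -1.46 in unstimulated and -0.09 in reactivated cells.

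**Figure D4:**
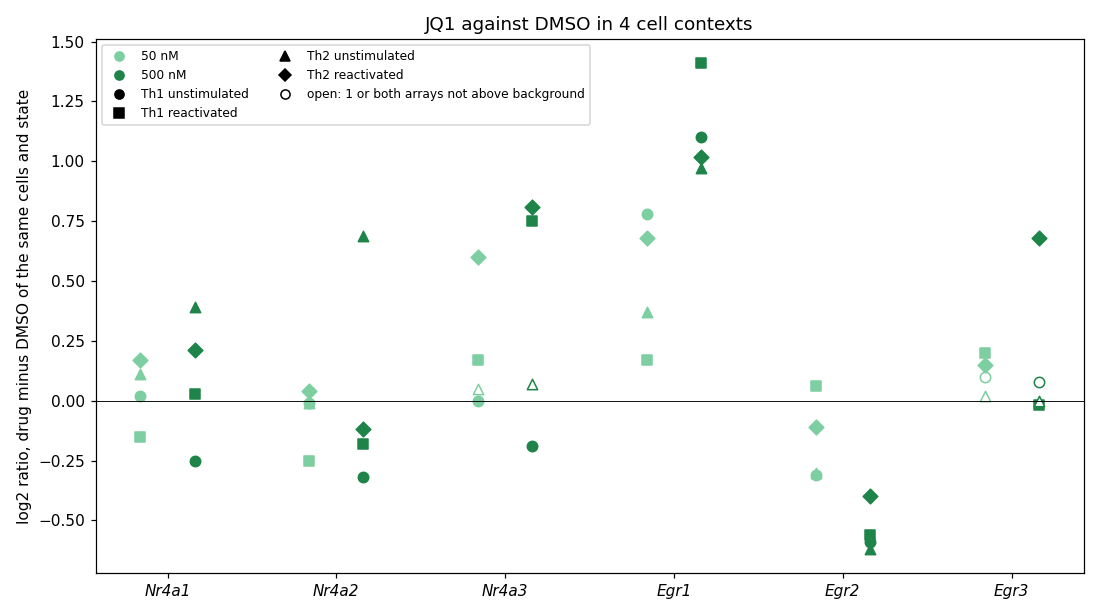
Log2 difference of JQ1 from DMSO for the 6 members by context, at 50 and 500 nM after 6 hr. At 500 nM and 6 hr Egr1 was 0.97 to 1.41 above DMSO and the Egr2 difference was -0.62 to -0.4.

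None of the Nr4a genes was called with 500 nM JQ1. Nr4a1 was at 2.01 (log2 ratio) in unstimulated Th1, 3.86 in reactivated Th1, -1.58 in unstimulated Th2 and 3.9 in reactivated Th2 cells, and its estimate was 0.1 ± 0.1 (log2, SE, limma, adjusted p = 0.485), which was -0.18 with median centring and -0.45 with spike-in centring. After 24 hr its difference was -1.58 in unstimulated Th1 cells and -0.05 in reactivated ones. Nr4a2 was at 4.73, 5.71, 2.01 and 5.14, with differences from DMSO of -0.32 to 0.69, and its estimate of 0.02 ± 0.15 (limma, adjusted p = 0.94) was -0.27 with the mean of its probes. Its dimmer probe differed by -1.16 and -0.93 in reactivated Th1 and Th2 cells and by -0.62 and 0.45 in unstimulated ones. The sample signal of the brighter probe in reactivated cells was 12.86 against 13.51 in Th1 and 11.69 against 12.32 in Th2 cells (log2). Nr4a3 was at 0.73, 4.4, -0.09 and 3.81, and its estimate was 0.36 ± 0.16 (limma, adjusted p = 0.0761). Over the 3 contexts other than unstimulated Th1 it was 0.55 and was called (limma, adjusted p = 0.0228), as it was without the Th1 unstimulated array with DMSO (0.49) or with 500 nM JQ1 (0.51), and it was -0.03 with spike-in centring. Egr3 was at 0, 0.45, -0.06 and 1.51, with an estimate of 0.19 ± 0.12 (limma, adjusted p = 0.229) that was -0.1 with spike-in centring.

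At 50 nM JQ1 0 of 6 members were called, with limma at an adjusted p below 0.05, and 0.256% of genes were called higher and 0.0852% lower. Egr1 was the 1 member with an unadjusted p under 0.05. It was above DMSO in 4 of 4 contexts, at 1.22 and 2.06 in Th1 and -2.16 and 3.19 in Th2 cells (log2 ratio), with an estimate of 0.5 ± 0.14 (log2, SE, limma, adjusted p = 0.147). Between 500 and 50 nM 1 of 6 was called higher and 1 lower, against 10.7% and 20.5% of all genes. Egr1 differed by 0.62 and Egr2 by -0.38 (limma, adjusted p = 0.00605 and 0.00676), and with spike-in centring the differences were 0 and -1.

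Reactivation within 500 nM JQ1 raised 6 of 6 members over 3 pairs, where 18.4% of 12133 genes were called higher and 27.7% lower. Egr3 passed the filter only through reactivated arrays there, so its call carries no weight in that count. The changes were 4.41 for Nr4a1, 2.32 for Nr4a2, 3.97 for Nr4a3, 3.75 for Egr1, 5.26 for Egr2 and 1.09 for Egr3 (log2, limma, adjusted p = 0.0039, 0.00426, 0.000116, 0.00306, 0.000832 and 0.00784). The Nr4a2 change was 3.1 in the sample channel alone and 3.23 in the deposited table. Without the 6 hr Th1 pair 4 members were called, Nr4a1 at 5.69, Nr4a2 at 2.99, Egr1 at 4.74 and Egr2 at 6.18, and Nr4a3 and Egr3 could not be tested. Nr4a1 was 3.67 and Egr2 4.63 without either array of the 24 hr Th1 pair and Egr1 3.08 without either of the Th2 pair, all called. Egr3 was 0.66 and not called with spike-in centring or the spike-in shift (limma, adjusted p = 0.418 and 0.52). The JQ1 effect in reactivated minus unstimulated cells was called for 1 of 6 members, Nr4a3, which was higher, where 4.50% of genes were called higher and 5.62% lower. The contrast was 0.83 ± 0.18 (limma, adjusted p = 0.0189), and it turned to -0.38 with spike-in centring. Nr4a3 was not above background in unstimulated Th2 cells with DMSO or JQ1, so no fall could show there. It was not called without any of 5 arrays taken 1 at a time, unstimulated Th1 with DMSO (0.75), reactivated Th1 with 500 nM JQ1 (0.75), unstimulated Th1 with 500 nM JQ1 (0.72), reactivated Th2 with DMSO (0.72) and unstimulated Th2 with DMSO (0.91). Against cell type 0 of 6 members were called by limma, as were 0% of genes higher and 0% lower. Of all genes, 907 had an unadjusted p under 0.05 in that contrast, and of the members none.

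With 500 nM JQ1, 8 of the 22 other immediate early genes rose and 2 fell, against 17.7% and 29.9% of all genes, with a median of 0.26 (log2) against -0.07 over all genes. Jun and Ier5 rose by 0.99 and 0.9, and Myc and the activation marker Cd69 changed by -0.62 and -0.75. Of the 19 signalling genes 4 rose and 5 fell, close to those shares of all genes. Creb1 rose by 0.95, and Hdac7, a deacetylase that binds MEF2, changed by -1.59 and Elk3 by -2.18. Of the 17 Egr-linked genes 6 rose, Rnf128 by 1.28 and Id3 by 0.84 among them, and 7 fell, with Crtam at -0.91 and Fasl at -2.16. Of 11 tested Nr4a-linked genes 2 rose, the proapoptotic gene Bcl2l11 by 1.12 and Rxrb by 0.24, and 5 fell, among them Pdcd1 at -0.87 and Havcr2 at -1.47.

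Th1 and Th2 cells were compared over 3 treatments, DMSO and both JQ1 doses, with the Th1 arrays at 6 hr. The time of the Th2 DMSO arrays is unclear. In unstimulated cells all 5 members that could be tested were higher in Th1 cells, where 18.8% of 12396 genes were called higher and 19.9% lower. Nr4a3 passed the filter only through its Th1 arrays, so its call carries no weight in that count. Nr4a1 was at 2.26, 2.28 and 2.01 (log2 ratio) in Th1 cells with DMSO, 50 and 500 nM JQ1, and at -1.97, -1.86 and -1.58 in Th2 cells, a difference of 3.99 ± 0.13 (log2, SE, limma, adjusted p = 1.11e-06). Egr1 differed by 3.15 ± 0.1 (limma, adjusted p = 1.11e-06), Nr4a2 by 3.39 ± 0.19 (limma, adjusted p = 1.16e-05) and Egr2 by 1.92 ± 0.08 (limma, adjusted p = 3.31e-06). Nr4a3 differed by 0.97 ± 0.09 (limma, adjusted p = 0.000168), and the Th1 mean was at least 1.65-fold higher.

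These differences rest on the Th1 arrays that stood apart. In a further fit, 24 hr Th1 arrays replaced the 6 hr ones for DMSO and 500 nM JQ1. The 6 hr array was kept for the lower JQ1 dose. In this fit 2 members were called, Nr4a2 at 2.14 and Egr2 at 1.31 (log2, limma, adjusted p = 0.0312 and 0.0197). Nr4a1 at 1.89 and Egr1 at 1.34 were not (limma, adjusted p = 0.139 and 0.215). Over all genes, 601 were called higher and 518 lower in that fit, in place of 2332 and 2471. Of the 22 other immediate early genes, 21 were called higher and 1 lower in the 6 hr Th1 arrays, with a median of 1.25 against -0.01 over all genes. The mean log2 ratio of 4 B cell genes was 0.14 to 1.16 on these 3 Th1 arrays and 1.57 to 2.51 on the Th2 arrays, and the part of that in the result was not tested.

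**Figure D5:**
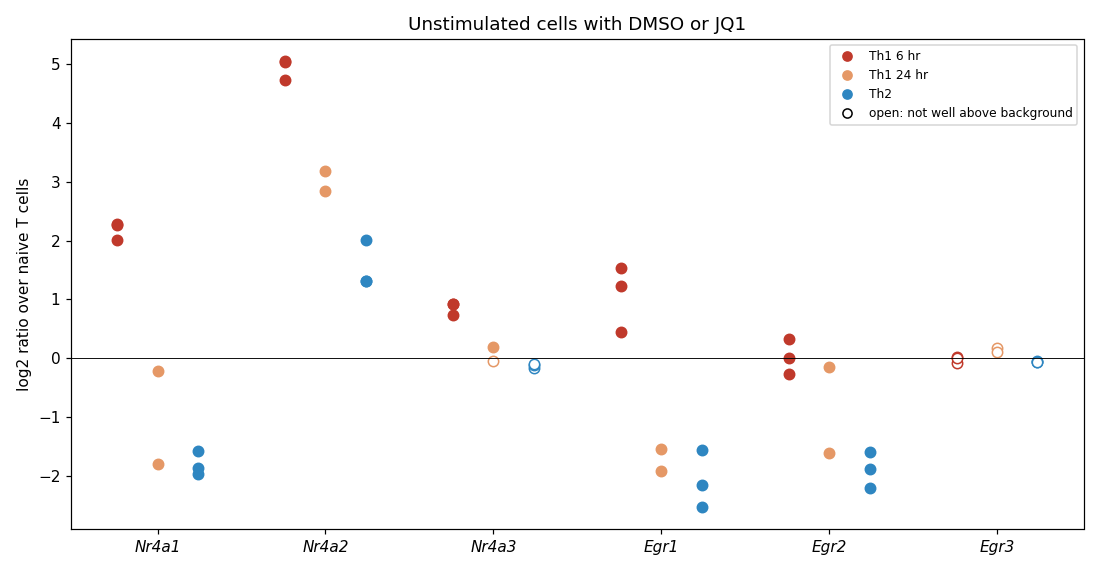
Log2 ratio over naive cells of the members in unstimulated Th1 cells at 6 hr, Th1 cells at 24 hr and Th2 cells without flavopiridol, a point for each array. Nr4a1 stood at 2.01 to 2.28 in Th1 cells at 6 hr, at -0.22 and -1.8 in Th1 cells at 24 hr and at -1.97 to -1.58 in Th2 cells.

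In reactivated cells the differences between Th1 and Th2 were smaller and ran both ways, with 2 of 6 members called higher in Th1 cells and 3 lower, where 14.5% of 12248 genes were called higher and 12.7% lower. Nr4a2 was higher by 0.52 ± 0.1 and Nr4a3 by 0.49 ± 0.11 (log2, SE, limma, adjusted p = 0.00769 and 0.0159). The difference was -0.66 ± 0.16 for Egr1, -0.58 ± 0.15 for Egr3 and -0.35 ± 0.1 for Egr2 (limma, adjusted p = 0.0223, 0.0299 and 0.0346). Nr4a1 was at 3.83, 3.68 and 3.86 (log2 ratio) in Th1 and at 3.69, 3.86 and 3.9 in Th2 cells, and the difference was -0.02 ± 0.1 (limma, adjusted p = 0.877). The Nr4a2 and Nr4a3 calls were lost with each of median centring, spike-in centring and the software's log ratio, as was that of Egr3 (-0.4, -0.5 and -0.99). The Egr1 and Egr2 calls were lost with the software's log ratio (-0.64 and -0.38), and that of Egr2 also with the spike-in shift (-0.74). A further fit took 24 hr Th1 arrays in place of the 6 hr ones, but kept the 6 hr array for 50 nM JQ1. None of Nr4a2, Nr4a3, Egr2 and Egr3 was called there, and Egr2 turned to 0.66. The Egr1 and Egr3 calls were lost without either 50 nM JQ1 array (-0.42 and -0.71), that of Nr4a3 without either DMSO array (0.41), and that of Egr2 without any 1 of the 6 arrays (-0.43 to -0.27).

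The levels of the 6 genes over all 24 arrays were then set against those of 11814 genes above background on at least 12 arrays, as a description over arrays that share a reference description and, in part, slides. The labels do not say whether a single pool of naive RNA served all arrays. Nr4a1 and Nr4a2 were each closest to the other among the members (Pearson r = 0.969), and Nr4a1 was also close to Atf3 (0.972) and Gadd45b (0.962). Nr4a2 was close to the same pair, at 0.956 and 0.952. Nr4a3 was most like Epha2 (0.98), Zswim4 (0.972) and Trib1 (0.967), and Egr2 most like Spry1 (0.982), Areg (0.97) and Kdm6b (0.966). Egr1 was most like the AP-1 subunit Fosb (0.905), Phlda1 (0.905) and the cytokine Tnf (0.883). Egr3 was most like Fosb (0.905), Egr4 (0.879) and Fos (0.872). Between members r ran from 0.339 for Nr4a2 with Egr3 to 0.969 for Nr4a1 with Nr4a2, and Nr4a3 and Egr2 were at 0.961.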

How the data were processed

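Gene expression was measured on 24 dual-colour arrays. Per the file headers, the deposited files hold spot intensity values of both channels from Agilent Feature Extraction 10.7.1.1 on a mm9 grid. The same deposited files hold the software's log10 ratio of Cy5 over Cy3. A series table from the authors holds log2 values of sample against naive cells. Its normalization is not given in the sources used here, and it followed the values computed here with r of 0.981 to 0.996. All of these entered the analysis, the last 2 as alternatives.

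Median spot and background intensities, in place of the mean signals first planned, were corrected with normexp (offset 50) and normalized by loess within each array (limma 3.58.1, R 4.3.3). Dyes were not swapped, so a dye bias of a probe stays in every ratio but cancels between arrays. Spots of a probe were averaged and the brightest probe stood for its gene. Of 55681 probes, 26437 carried 1 symbol, through accessions in a RefSeq table or the name in the file. Genes well above background in Cy3 on at least 3 arrays of a fit were tested with lmFit and eBayes, with Benjamini-Hochberg adjustment over all genes tested and calls at an adjusted p below 0.05. Groups were taken from the labels. Reactivation was fitted with pairs as a block, drugs over 12 arrays with cell context as a block, and cell types with treatment as a block, so contexts stood in for replicates. P-values then measure the spread of an effect over contexts. Both doses share a context's control. Where a group was nowhere above background, the other group's mean was set against the higher of the lowest signal above background and the dim signal of each array, after Aquantile scaling, and given as a lower bound of the fold. The median SD of Cy5 between arrays was 0.185 (log2), and the flagged spots, 234 to 331 per array, were left out. The methods were checked on simulated data.

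The members and gene lists were chosen with earlier results of these data known. Named genes were the 6 members, the 3 genes most correlated with each, and, per list, the 2 largest called rises and falls under reactivation, 10 µM flavopiridol and 500 nM JQ1, of which 1 is not reported here. The 14 genes called under flavopiridol and the motif count of 4 were named after their values were seen. Alternatives changed the scaling, background correction, channel, filter, block, probe rule, slide and arrays. Figures were drawn with matplotlib 3.10.9.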

Additional observations from a re-analysis of the deposited data

Results flagged for a closer look

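A direct test of the 10 µM flavopiridol effect in reactivated minus unstimulated cells called Egr2 and Nr4a3. The contrast was -3.91 ± 0.89 (log2, SE, limma, adjusted p = 0.0275) for Egr2 and -2.65 ± 0.47 (limma, adjusted p = 0.0123) for Nr4a3. With the scanner software's log ratio Egr2 was at -1.69 and Nr4a3 at -3.22, and neither was called. Both calls were lost when any 1 of the 4 arrays with 10 µM was left out. Nr4a3 was at or near background in unstimulated DMSO cells and above it on 0 of the 4 arrays with 10 µM, so little fall could show in unstimulated cells. The same test for 500 nM JQ1 called Nr4a3, with a contrast of 0.83 ± 0.18 (limma, adjusted p = 0.0189), which was -0.38 with spike-in centring. Nr4a3 was not above background in unstimulated Th2 cells with DMSO or JQ1, so no fall could show there. No group of 4 or more replicates of a condition existed in which a single array could be tested as standing apart.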

How the results depend on the processing

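Of 1055 member values under other settings, 873 kept their direction and their side of the threshold, 136 lost and 15 gained a call and 31 reversed. Among these, the 466 values with 1 array left out gave 394, 62, 5 and 5. Causes were not tested. Replicate numbers pair no arrays, with 1 array per condition. The blocks were the pairs, contexts and treatments of the labels, and the counts without them are given next. Slide as a random block could not be fitted for Th1 against Th2 or for reactivation, where both arrays of a pair share a slide. Leaving out an arm's array assumes that the rest varies alike.

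Counts of called members changed as follows. With no block for pair, context or treatment, 0 were called higher and 0 lower for 500 nM JQ1 against DMSO and against 50 nM, 0 higher for its contrast by state, 0 and 0 for Th1 against Th2 in reactivated cells and 0 higher for reactivation under flavopiridol, with 1 lower for 1 µM flavopiridol, 3 lower for 10 µM and 1 for its contrast by state. With spike-in centring, and likewise when loess values were shifted by their spike-ins, 0 were higher for 500 nM JQ1 against DMSO and against 50 nM, 0 for Th1 against Th2 in reactivated cells and 0 for the JQ1 contrast by state, which had 4 and 5 lower, and 5 were higher for reactivation under flavopiridol in both. Beside these, 10083 and 11067 of 12911 genes were lower in the JQ1 contrast and 1160 and 438 of 10920 higher for reactivation under flavopiridol. For 10 µM flavopiridol 6 and 5 members were lower and for 1 µM 5 and 5, in place of 5 and 4, where 11361 and 7909 and then 10734 and 6502 of 12432 genes were lower. For reactivation under 500 nM JQ1 5 and 5 were higher in place of 6, without Egr3. Egr1 was at -3.57 and -2.2 with 10 and 1 µM flavopiridol under spike-in centring. With median centring 0 were higher for the JQ1 contrast by state and 0 for Th1 against Th2 in reactivated cells. With the software's log ratio 0 were higher for the JQ1 contrast by state, 0 for reactivation under flavopiridol, 0 and 0 either way for Th1 against Th2 in reactivated cells and 0 lower for the flavopiridol contrast by state, and 2 were lower for 1 µM flavopiridol. With slide as a random block 3 were lower for 10 µM flavopiridol and 1 for 1 µM. For 10 µM, 3 were lower with 8 arrays and 3 in Th1 cells only, and for 1 µM, 2 without a filter on dim probes and 1 without the unstimulated Th1 context. Without that context 2 were higher for 500 nM JQ1, and in Th1 cells within slides 0. Cy3 alone gave 1 higher for reactivation under flavopiridol. Th1 against Th2 was also fitted with 24 hr Th1 arrays for DMSO and 500 nM JQ1 and the 6 hr ones for 50 nM. It gave 2 higher in unstimulated cells, and 0 higher and 1 lower in reactivated cells.

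With each array left out in turn, the count was 1 to 2 higher for 500 nM JQ1, 0 to 1 higher and 0 to 1 lower for its contrast by state, 1 to 2 higher and 0 to 2 lower for Th1 against Th2 in reactivated cells, 0 to 1 higher and 1 to 4 lower for 1 µM flavopiridol, 3 to 5 lower for 10 µM, 0 to 4 lower for its contrast by state and 0 to 3 higher for reactivation under flavopiridol.

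Reversed values were these. Egr1 under 1 µM flavopiridol was 0.21 without the unstimulated Th1 context and -1.27 to 0.1 with an array left out. Egr2 in reactivated Th1 against Th2 cells was 0.66 with the 24 hr arrays for DMSO and 500 nM JQ1. Nr4a1 was 0.15 there, 0.02 with the software's log ratio and -0.11 to 0.05 with an array left out. Egr3 was -0.1 and -0.36 (500 nM JQ1), -0.25 and -0.21 (1 µM flavopiridol) and -0.35 and -0.46 (10 µM) with spike-in centring and shift. Nr4a1 under 500 nM JQ1 was -0.46 within slides, -0.11 in Th1 cells, -0.18 with median centring and -0.45 with both spike-in settings. Nr4a2 was -0.28 with Cy3 alone, -0.25 in Th1 cells, -0.29 in the deposited table, -0.27 with the mean of probes, -0.31 with median centring and -0.59 and -0.53 with the spike-in settings, and -0.2 to 0.14 with an array left out. Nr4a3 was -0.03 and -0.18 with the spike-in settings, and -0.38 with each in its contrast by state.

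The median of all genes moved from -0.22 to -1.05, -1.66 and -1 for 10 µM flavopiridol with median centring, spike-in centring and spike-in shift, and from -0.07 to -0.28, -0.55 and -0.62 for 500 nM JQ1, where 115 genes were called higher and 5522 lower with spike-in centring in place of 2282 and 3862. Dim spots limit Nr4a3 and Egr3, whose values near background have no order.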

Other observations

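Egr4, the relative of Egr1, Egr2 and Egr3 that was in the Egr-linked list and no member, was higher in reactivated than in unstimulated cells in 12 of 12 pairs, by 2.3 to 9.34 (log2). Its difference was 2.3 to 4.98 in the DMSO pairs, 2.3 to 5.44 in the JQ1 pairs and 5.58 to 9.34 in the flavopiridol pairs, where it was above background on 0 of the 4 unstimulated arrays and the reactivated mean was at least 182-fold higher than the lowest signal that counted as measured. With JQ1 Egr4 was above background on 3 of 5 unstimulated arrays, and the differences of the others, 5.44 among them, stand against background. In the naive reference Egr4 was above background on 2 of 24 arrays.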
